A study of Mus musculus with 34 samples.

Results

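The genes described here make or regulate the mineralised matrix of bone: Runx2, Sp7, Bglap, Bglap2, Ibsp, Dmp1, Mepe, Spp1, Alpl and Phex. They are 10 of the 51826 gene identifiers counted in 34 libraries of sorted mouse cells, were listed by name, and all 10 passed the filter on low counts. The libraries are polyadenylated RNA from 25 fibroblast and 9 mesothelial samples. Every sample was sorted as negative for CD45 (leukocytes), CD31 (endothelium) and Epcam (epithelium) and positive for podoplanin, and every sample carries the label GFPneg. PDGFRA-positive cells were taken as fibroblasts from bone, brown adipose tissue, inguinal fat, epididymal fat, mesentery, omentum, lymph node, pancreas and spleen. PDGFRA-negative cells of the epididymal, mesenteric and omental depots were taken as mesothelial cells, the lining of the body cavity. There are 3 libraries per group, but only 2 for pancreas and 2 for spleen, with 28.7 M to 42.3 M counts each. The labels place inguinal and brown adipose tissue in the subcutaneous region and the other 3 depots in visceral fat. Strain, age, sex and treatment are not given in the sources used here, and nothing says whether replicates came from separate animals, so that p-values measure the spread between these libraries, which may be technical.

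Mineralisation begins when osteoblasts, the bone-forming cells, lay down a collagen matrix and load it with calcium phosphate. The transcription factors Runx2 and Sp7 (osterix) direct osteoblast formation. Osteocalcin, encoded in the mouse by Bglap and Bglap2 beside the related gene Bglap3, is a small vitamin K-dependent protein of the matrix. Ibsp (bone sialoprotein), Dmp1, Mepe and Spp1 (osteopontin) encode acidic phosphoproteins that bind mineral, and with Dspp of dentine they form a gene cluster known as the SIBLING family. The enzyme encoded by Alpl cleaves pyrophosphate, an inhibitor of mineral growth, and Phex is a membrane protease whose loss causes phosphate wasting.

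Bglap and Bglap2 are so alike that read assignment limits what can be said of each. On chromosome 3 of GRCm38 the genes Bglap (88383501 to 88384464), Bglap2 (88377736 to 88378699) and Bglap3 (88368616 to 88372743) lie on the minus strand within 15.8 kb. The coding sequences of Bglap and Bglap2, read from the GENCODE M21 annotation of that genome, are both 288 bases long and are shown because they set how far the 2 counts can be separated. Capitals mark the 4 positions at which they differ.
Bglap: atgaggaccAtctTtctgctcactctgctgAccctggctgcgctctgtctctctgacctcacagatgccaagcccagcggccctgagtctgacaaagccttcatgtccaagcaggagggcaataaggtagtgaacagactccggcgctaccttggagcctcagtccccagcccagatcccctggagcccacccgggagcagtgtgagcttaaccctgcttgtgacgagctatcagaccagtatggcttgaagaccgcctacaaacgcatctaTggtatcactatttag
Bglap2: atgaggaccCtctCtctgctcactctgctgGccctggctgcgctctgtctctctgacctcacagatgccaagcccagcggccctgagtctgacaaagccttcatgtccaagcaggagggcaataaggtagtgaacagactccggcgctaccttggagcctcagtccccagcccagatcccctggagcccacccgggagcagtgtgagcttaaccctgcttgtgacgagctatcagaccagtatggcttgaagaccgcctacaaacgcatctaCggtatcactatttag
Counted from 1 at the A of the start codon, the changes from Bglap to Bglap2 are A10C, T14C, A31G and T273C, which leaves 98.6% identity and an unbroken identical run of 241 bases from position 32 to 272. Of all stretches of 50 bases in the annotated exons, 56.6% of those of Bglap and 88.2% of those of Bglap2 also occur in another gene of the trio, against 6.99% for Bglap3. At 100 bases the shared part was 38.7% for Bglap, 57.0% for Bglap2 and 1.03% for Bglap3. Reads from shared stretches can be split between the genes or left out, so the levels of Bglap and Bglap2 are uncertain as separate values. Overlapping annotation touches other genes too. Gm42793 overlaps exons of Spp1 on the same strand and held 799 counts over all libraries, and Runx2os1 overlaps exons of Runx2 on the opposite strand and held 181. The strandedness of the libraries is not given in the sources used here.

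All 10 genes were higher in bone fibroblasts than in the mean of the other 8 fibroblast groups, and for all 10 every bone library lay above all 22 other fibroblast libraries. Calls rest on edgeR's quasi-likelihood test, with an adjusted p (Benjamini-Hochberg) under 0.05 and a log2 fold change of 1 or more. Fold changes against several groups use the mean of their fitted log2 levels. They can therefore differ from ratios of mean CPM or of pooled counts. Of all 25705 genes tested, 12.8% were called higher in bone and 6.65% lower, and 6.55% had every bone library above all the others. The median log2 fold change of the 10 genes was 11.21, beside 0.03 over all genes tested, and the median log2 ratio of pooled counts was 10.14. Without the bone libraries 7 of the 10 pass the filter on low counts, all but Ibsp, Mepe and Sp7. Together the 10 genes took 3.66% ± 0.607 (SD, n = 3) of all counts in bone libraries, between 2.97% and 4.12%. The next highest share was 0.0389% ± 0.032 (SD, n = 2) in pancreas fibroblasts.

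**Figure D1:**
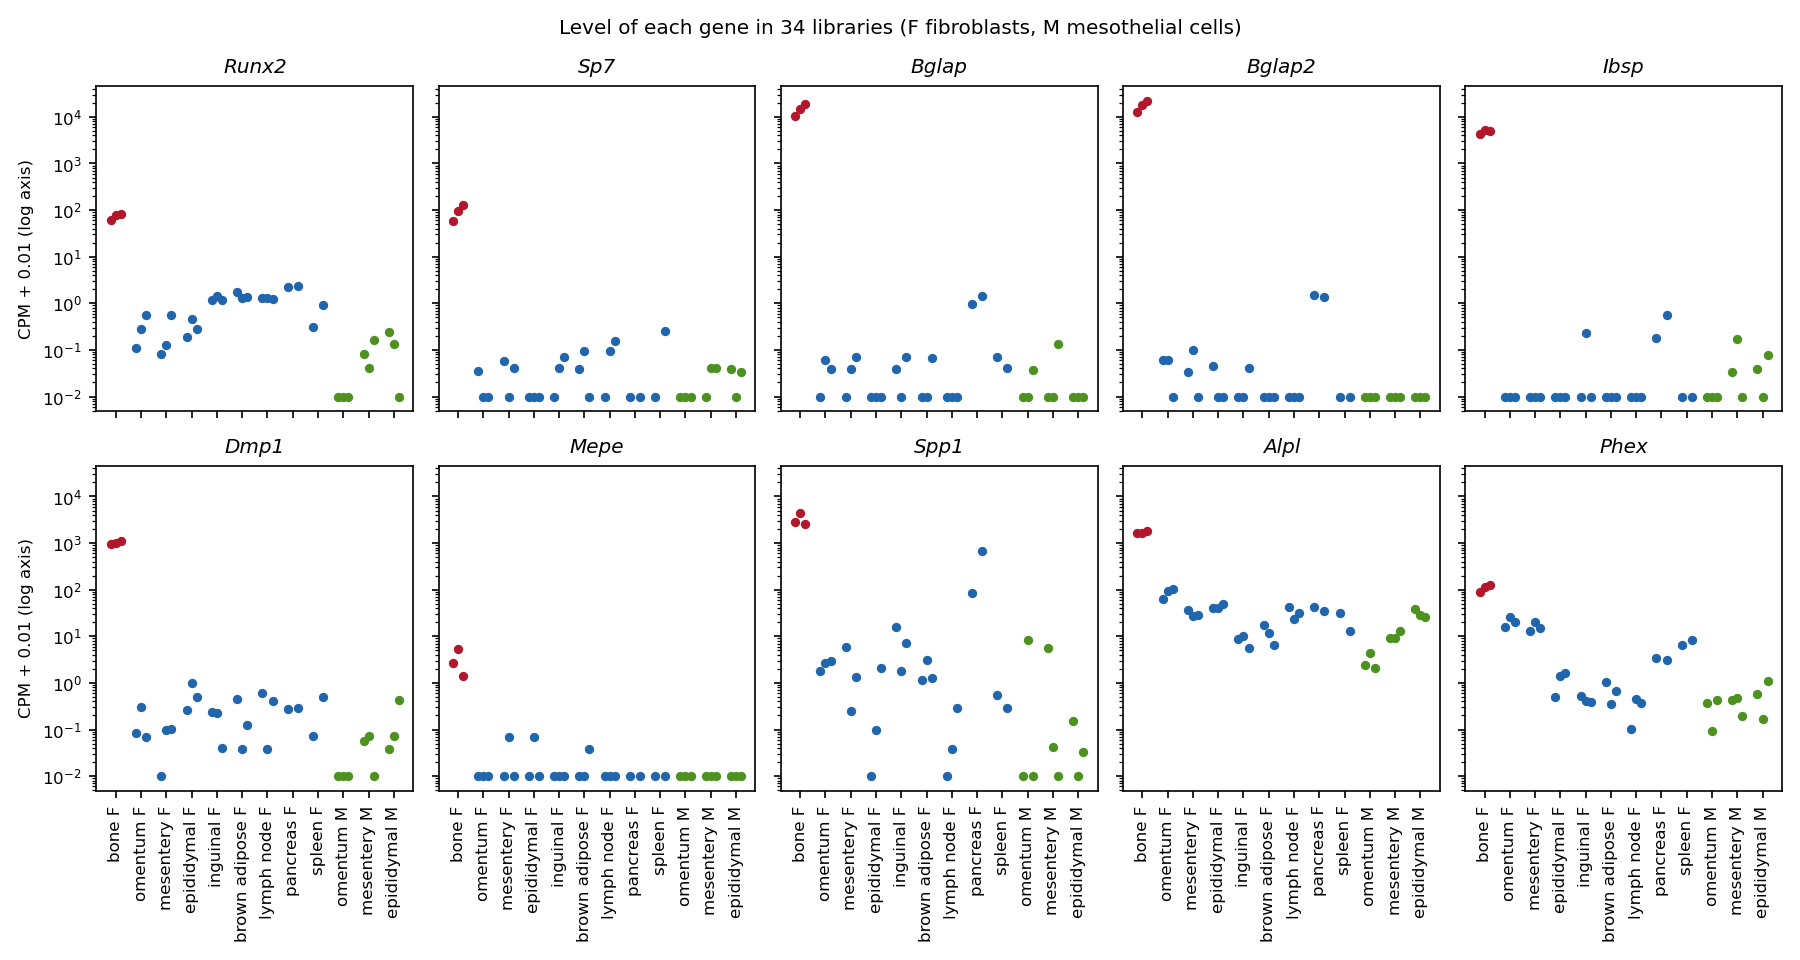
Level of each of the 10 genes in every library, in CPM plus 0.01 on a log axis, with points for single libraries, red for bone, blue for the other fibroblasts (F) and green for mesothelial cells (M). The 3 bone points stand above all others in each panel, and pancreas fibroblasts hold the next highest Spp1, at 84.3 and 668 CPM.

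Runx2, on the minus strand of chromosome 17 (44495987 to 44814797), stood at 60.9, 77.3 and 84.2 CPM in the bone libraries 1, 2 and 3. CPM are counts relative to library totals scaled by TMM. In the other 8 fibroblast groups its mean lay between 0.246 and 2.27 CPM. The log2 fold change was 6.68 ± 0.19 (SE; adjusted p = 1.26e-25). Sp7, on chromosome 15 (102356606 to 102367182), acts downstream of Runx2 and stood at 58.5, 93.4 and 127 CPM in bone. The 22 other fibroblast libraries held 26 Sp7 reads in all against 7380 in bone, a pooled ratio of 2669.9 (95% interval 1821 to 4090, counting error only). The pancreas libraries held none. Runx2 was thus counted in every other fibroblast library at a low level, while Sp7 had at most 8 reads in any of them.

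Osteocalcin transcripts were among the most abundant in bone. Bglap stood at 10214, 15034 and 19132 CPM and Bglap2 at 12718, 18261 and 22131 CPM in libraries 1, 2 and 3. Both were lowest in library 1 and highest in library 3. By CPM per kb of exon, Bglap2 ranked 1 and Bglap 3 of all 51826 genes in bone, at 37586 ± 10045 and 23937 ± 7223 (SD, n = 3). The ratio of Bglap2 to Bglap counts was 1.25, 1.21 and 1.16, and Bglap3 took 2.16%, 2.25% and 2.22% of the counts of the trio. The counts assigned to the 3 genes thus kept nearly the same proportions. Their summed level rose from 23439 to 42201 CPM between the lowest and the highest library. The separate ranks, ratios and proportions depend on how shared reads were assigned. Over the 20 fibroblast libraries of neither bone nor pancreas there were 14 reads of Bglap and 10 of Bglap2. The pooled ratio of bone to those libraries was 713828 for Bglap (95% interval 425445 to 1305685) and 1197464 for Bglap2 (651135 to 2497122), from counting error alone.

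The 4 SIBLING genes tested differed widely in level. Ibsp, the bone sialoprotein gene (chromosome 5, 104299171 to 104311469), stood at 4191, 5232 and 4974 CPM in bone. It had no read in 6 of the 8 other fibroblast groups and 32 reads over all 8. The ratio of bone to the 22 other libraries was 112999 (95% interval 80043 to 165206). Dmp1, which marks osteocytes (104202613 to 104214102), stood at 950.2, 1002 and 1115 CPM in bone and at no more than 0.98 CPM in any other fibroblast library (log2 fold change 12.22 ± 0.24, SE; adjusted p = 6.63e-32). Spp1 (104435118 to 104441050) stood at 2825, 4498 and 2567 CPM, with library 2 above the other two. Mepe (104325329 to 104338611), an osteocyte gene, was scarce even in bone with 74, 145 and 36 reads, or 2.63, 5.39 and 1.42 CPM. The other fibroblasts held 5 Mepe reads in all, and the pooled ratio was 479.7 (203 to 1490.1). Ibsp, Mepe and Spp1 were highest in library 2, and the other 7 genes in library 3. Per kb of exon, bone levels fell from 2321 ± 262 for Ibsp and 2000.3 ± 636 for Spp1 to 369.9 ± 30.5 for Dmp1 and 1.87 ± 1.21 for Mepe (CPM per kb, SD, n = 3).

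**Figure D2:**
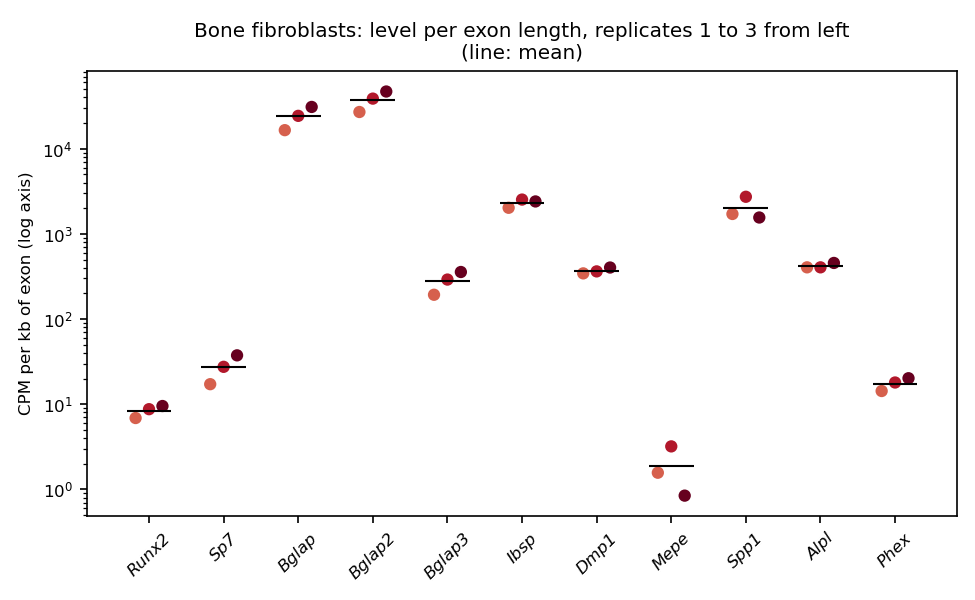
Bone fibroblasts only: CPM per kb of exon on a log axis for the 10 genes and Bglap3, with replicates 1 to 3 from left and the mean as a line. Bglap2 stands highest at a mean of 37586 and Mepe lowest at 1.87.

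Alpl and Phex, the enzyme and protease genes, were counted in every library outside bone. Alpl, on the minus strand of chromosome 4 (137741733 to 137796384), stood at 1632, 1634 and 1839 CPM in bone, and the other fibroblast groups averaged 8.14 to 87.3 CPM (log2 fold change 5.96 ± 0.17, SE; adjusted p = 2.93e-23). Phex, on the X chromosome (157162075 to 157415312, minus strand), stood at 90.2, 113 and 127 CPM in bone. Its other group means ran from 0.3 to 20.8 CPM (log2 fold change 5.56 ± 0.19, SE; adjusted p = 2.13e-22).

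Genes of the cluster on chromosome 5 did not move as a block with the genes around it. Ibsp, Dmp1, Mepe and Spp1 lie on the plus strand within 238.0 kb. Dspp, the dentine gene at the start of the cluster, had 2 reads over the 3 bone libraries and was too low to test. Of the genes next to the cluster, Sparcl1 was called lower in bone (log2 fold change -1.62 ± 0.26, SE; adjusted p = 7.65e-06). Nudt9 missed the fold threshold at 0.97 (adjusted p = 2.59e-06), and Hsd17b11, Pkd2 and BC005561 were not called, at -0.38, -0.40 and 0.02.

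**Figure D3:**
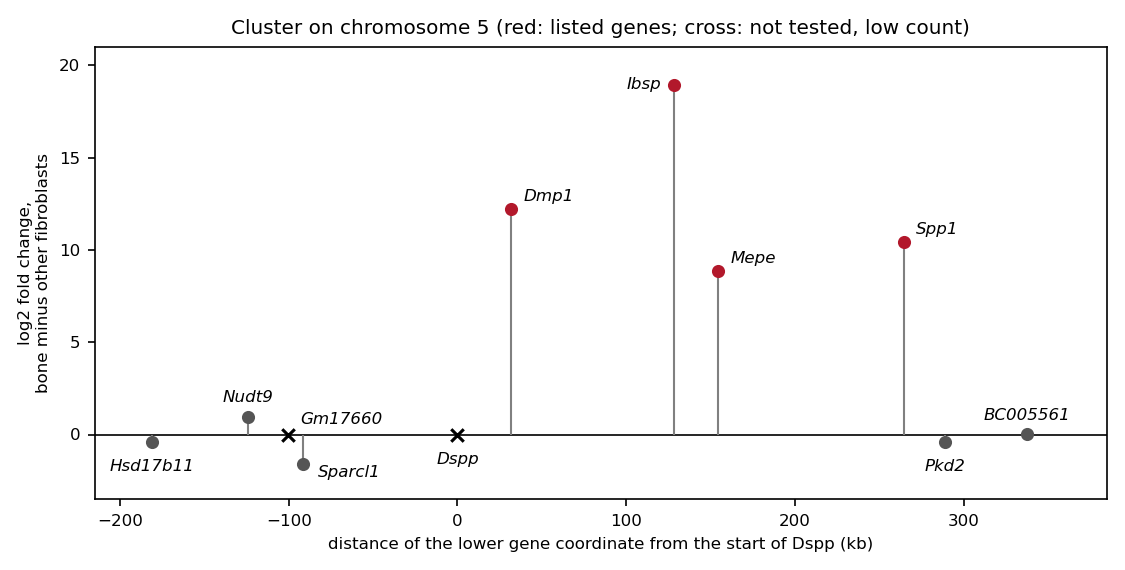
Log2 fold change of bone against the other 8 fibroblast groups (vertical axis) by the distance of each gene's lower coordinate from that of Dspp (horizontal axis, kb), red for the 4 cluster genes described here, grey for neighbours and crosses for genes too low to test. The neighbours lie between -1.62 and 0.97 and the 4 red points far above them; the heights of Ibsp and Mepe depend on the prior count, since 6 and 5 of the 8 groups hold none of their reads.

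The sequence upstream of the start sites was examined for the letters bound by RUNX proteins, since Runx2 is a member. RefSeq windows (GRCm38.p6) were at hand for 8 of the 10 genes, not for Bglap2 and Sp7. The core ACCACA or its reverse complement TGTGGT was searched in the 250 bases before each start. It occurs in a window of 5 of the 8 genes (Bglap, Dmp1, Spp1, Mepe and Runx2), and in 14.0% of all 32851 windows of that length. The first is a count of genes and the second a share of windows, so they are not like measures. Dmp1 and Spp1 have a match in only 1 of their 2 windows, and Alpl in neither of its 2. The windows of Bglap (minus strand, chr3:88384467-88384716) and of the first start of Spp1 (plus strand, chr5:104434861-104435110) are shown as examples of a match in an abundant and a widely varying member, with the core in capitals.
Bglap upstream: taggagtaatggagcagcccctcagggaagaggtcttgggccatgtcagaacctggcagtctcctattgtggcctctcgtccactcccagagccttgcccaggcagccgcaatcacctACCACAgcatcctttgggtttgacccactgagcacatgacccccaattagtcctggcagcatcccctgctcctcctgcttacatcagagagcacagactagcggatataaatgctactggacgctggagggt
Spp1 upstream: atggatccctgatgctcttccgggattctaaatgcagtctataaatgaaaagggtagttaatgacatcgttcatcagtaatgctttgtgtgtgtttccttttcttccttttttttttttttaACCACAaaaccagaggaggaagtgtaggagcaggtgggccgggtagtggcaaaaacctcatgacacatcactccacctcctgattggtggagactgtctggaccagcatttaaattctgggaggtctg
The core begins 132 bases before the start in Bglap and 128 bases before it in Spp1. Such a match is a description of letters, and binding was not measured.

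Genes that work beside these were counted in lists. In bone 12.8% of all genes tested were called higher and 6.65% lower. Of 10 osteoblast regulators 8 were higher in bone and 1 lower. The homeobox gene Dlx5 stood at 62.9 ± 9.64 CPM in bone (SD, n = 3) with a log2 fold change of 7.58 ± 0.20 (SE), and Dlx3 changed by 7.15 ± 0.27. Cbfb, which encodes the partner of RUNX proteins, rose by 1.88 ± 0.13 (SE). Twist2 was the member called lower (-2.57 ± 0.43), and Msx2 was not called (adjusted p = 0.0694). Of 10 further genes listed with the bone matrix proteins 9 could be tested and all 9 were higher. They include Bglap3 (11.53 ± 0.22, SE), the collagen gene Col1a2 (4.56 ± 0.11), Ifitm5 (8.15 ± 0.22) and Tnn (7.32 ± 0.23).

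Among 7 genes of phosphate and pyrophosphate handling, 5 were higher in bone, where 12.8% of all genes were called higher and 6.65% lower. Phospho1, which frees phosphate inside matrix vesicles, rose from at most 0.104 CPM in any other fibroblast group to 44.7 ± 7.58 CPM (SD, n = 3; log2 fold change 10.52 ± 0.27, SE). The phosphate transporter Slc20a2 rose by 2.96 ± 0.16, Enpp1, which makes pyrophosphate, by 2.94 ± 0.22, and the sphingomyelinase Smpd3 by 1.73 ± 0.17 (SE). Slc20a1 and Fam20c missed the fold threshold at 0.80 and 0.86. Of 7 hormone, osteocyte and osteoclast-coupling genes 6 were tested, 5 were higher and 1 lower. Mmp13, a collagenase, stood at 1834 ± 602 CPM in bone (SD, n = 3). The parathyroid hormone receptor Pth1r rose by 4.15 ± 0.15, the vitamin D receptor Vdr by 5.38 ± 0.26 and the osteoclast factor Tnfsf11 by 5.36 ± 0.56 (SE). Tnfsf11 stood higher in lymph node fibroblasts, at 7.86 ± 1.25 CPM, than in bone at 1.69 ± 0.0789 (SD, n = 3 each). Sost, the osteocyte gene for sclerostin, was too low to test. Fgf23, named after its values were seen, was the gene called lower (-3.37 ± 1.03, SE; adjusted p = 0.00985).

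The bone libraries expressed the genes of their sort and also markers of other cells. Pdgfra stood at 394 ± 26.1 CPM in bone (SD, n = 3), below the other fibroblasts (log2 fold change -1.28 ± 0.15, SE), and Pdpn at 199 ± 26.4. Ptprc, Pecam1 and Epcam, the genes of the excluded proteins, stood at 3.37, 8.02 and 0.0387 CPM, and Ptprc was called higher than in the other fibroblasts (1.87 ± 0.57, SE; adjusted p = 0.0124). Chondrocyte markers were higher in bone for 7 of 8 genes, where 12.8% of all genes were called higher. Their sum was 458, 875 and 327 CPM in libraries 1, 2 and 3, against at most 40.8 in any other library. All 7 neutrophil markers were higher, with sums of 147, 409 and 509.9 CPM. All 5 skeletal muscle markers were higher, with sums of 4753, 4829 and 336 CPM, and 5 of 6 erythroid markers, with sums from 18.4 to 129 CPM. Osteoclast markers were higher for 4 of 8. Their bone sums of 413 to 487 CPM lay below those of inguinal fibroblasts (845 to 1218). Most of these sums was Ctsk, which was not called and averaged 479 CPM in bone and 1058 in inguinal fibroblasts. Of the 4 called, Calcr averaged 3.98 CPM in bone against at most 0.209 in any other fibroblast group, Acp5 28 against 23.2 and Atp6v0d2 1.12 against 0.343. Mmp9 averaged 11.5 CPM in bone but 57.1 in lymph node fibroblasts. None of these lists had a gene at 0 in bone. Their part in the results was not tested. Leaving out any single bone library changed no call of the 10 genes. That cannot test the part of these markers, since every bone library held them. In sorted bulk samples, more cells of a type and more RNA per cell cannot be told apart.

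Outside bone, 7 of the 10 genes differed across the remaining 8 fibroblast tissues, where 34.8% of all genes tested were called. Dmp1, Mepe and Sp7 were not called there. When single libraries were left out the count ran from 6 to 8, and Ibsp was lost without pancreas library 2 (adjusted p = 0.151). Without both pancreas libraries 4 genes remained: Phex, Alpl, Runx2 and Spp1. The share of all genes called in that fit is not given here. Bglap, Bglap2 and Ibsp then had adjusted p = 0.771, 0.586 and 0.421.

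With bone set aside, Phex was highest in omentum and mesentery fibroblasts. It stood at 15.9, 26 and 20.4 CPM in omentum fibroblasts, at 13.2, 20.5 and 14.7 in mesentery fibroblasts and at 6.52 and 8.19 in spleen fibroblasts. Pancreas fibroblasts followed at 3.03 to 3.38 CPM, and epididymal, brown adipose, inguinal and lymph node fibroblasts averaged 1.17, 0.691, 0.431 and 0.3 CPM. Omentum and mesentery overlapped, spleen lay below both, pancreas below spleen, and the last 4 below pancreas with overlap among themselves. Against the mean log2 level of the other 7 groups without bone, Phex was higher in omentum (log2 fold change 3.61 ± 0.21, SE; adjusted p = 5.46e-15), mesentery (3.19 ± 0.22; 3.01e-12) and spleen (1.90 ± 0.28; 1.36e-05). By plain means of CPM, spleen stood at 7.35 beside 6.1 for the other 7 groups. Of all genes 2% were called higher in mesentery and 1.18% lower, and 3.24% higher in spleen and 0.342% lower. Phex was lower in lymph node (-3.35 ± 0.43), inguinal (-2.76 ± 0.40) and brown adipose fibroblasts (-2.0 ± 0.36). The share of all genes called lower was 7.18% in lymph node, 3.01% in inguinal and 2.75% in brown adipose fibroblasts, and 9.49%, 3.28% and 3.8% were called higher. The lower value in epididymal fibroblasts (-1.11 ± 0.33; adjusted p = 0.0384; 1.65% of all genes called lower) had an adjusted p of 0.0749 without the pancreas libraries and rose to as much as 0.343 when single libraries were left out.

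Alpl was highest in omentum among these tissues. It stood at 62.3, 93.3 and 106 CPM there, above every other fibroblast library outside bone, the nearest of which was an epididymal library at 48.2 CPM (log2 fold change 1.92 ± 0.20, SE; adjusted p = 5.85e-09). Of all genes 2.69% had every omentum library above the others. Inguinal fibroblasts, at 8.74, 10.1 and 5.64 CPM, and brown adipose fibroblasts, at 17.8, 11.6 and 6.53 CPM, were lower (-1.99 ± 0.27 and -1.36 ± 0.26). Epididymal, pancreas, lymph node, mesentery and spleen groups lay between, with means of 21.9 to 43.4 CPM and overlap between neighbours. In omentum fibroblasts 2 of the 10 genes were thus called higher, where 7.67% of all genes were, and 1 lower, Runx2 (2.25%). The omentum fibroblasts also held markers of other cells. Their lymphocyte marker sums were 1123 to 1806 CPM, against at most 934 in any other fibroblast library, with 5 of 8 genes called higher. Acinar sums were 1155 to 3877 CPM, mesothelial sums 625 to 937 CPM, and macrophage sums 154 to 173 CPM with 7 of 8 genes higher. Their part in the Alpl and Phex levels was not tested. Omental mesothelial cells themselves held 0.285 ± 0.179 CPM of Phex and 2.95 ± 1.2 CPM of Alpl (SD, n = 3).

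Genes of the hormonal control of phosphate were measured beside Phex, and not all were highest in omentum outside bone. Pth1r stood at 3.44 ± 0.807 CPM in omentum fibroblasts (SD, n = 3). Its group means over the fibroblast tissues outside bone ran from 2.95 to 11.4 CPM, highest in pancreas. Fgf23, which encodes a phosphate-lowering hormone made by osteocytes, stood at 11.4 ± 3.38 CPM in omentum fibroblasts and at 0.0909 ± 0.128 in bone (SD, n = 3 each). It was higher in omentum than in the other 7 groups without bone (log2 fold change 4.11 ± 0.36, SE; adjusted p = 2.27e-12) and also in lymph node fibroblasts (2.80 ± 0.40), whose libraries ran from 0.356 to 12.4 CPM. Vdr stood at 18.5 ± 2.17 CPM in omentum fibroblasts (3.23 ± 0.29, SE; adjusted p = 7.84e-10).

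Runx2 followed another order. Outside bone it stood highest in pancreas fibroblasts at 2.23 and 2.31 CPM, above every library of the other 7 groups. Brown adipose, lymph node and inguinal fibroblasts averaged 1.47, 1.26 and 1.25 CPM and overlapped. Spleen, omentum, epididymal and mesentery fibroblasts averaged 0.618, 0.31, 0.3 and 0.246 CPM and overlapped in turn. Runx2 was called higher in pancreas (1.89 ± 0.33, SE; adjusted p = 6.1e-05) and brown adipose fibroblasts (1.18 ± 0.31; 0.00829), the second call being lost without brown adipose library 1 (1.02; adjusted p = 0.107). It was called lower in mesentery (-1.83 ± 0.46; 0.0114) and omentum (-1.42 ± 0.43; 0.019). The mesentery call was lost without mesentery library 1 or 2 (adjusted p = 0.229 and 0.116). The omentum call was lost without omentum library 1 or 2 (adjusted p = 0.184 and 0.138) or without the pancreas libraries (0.111).

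**Figure D4:**
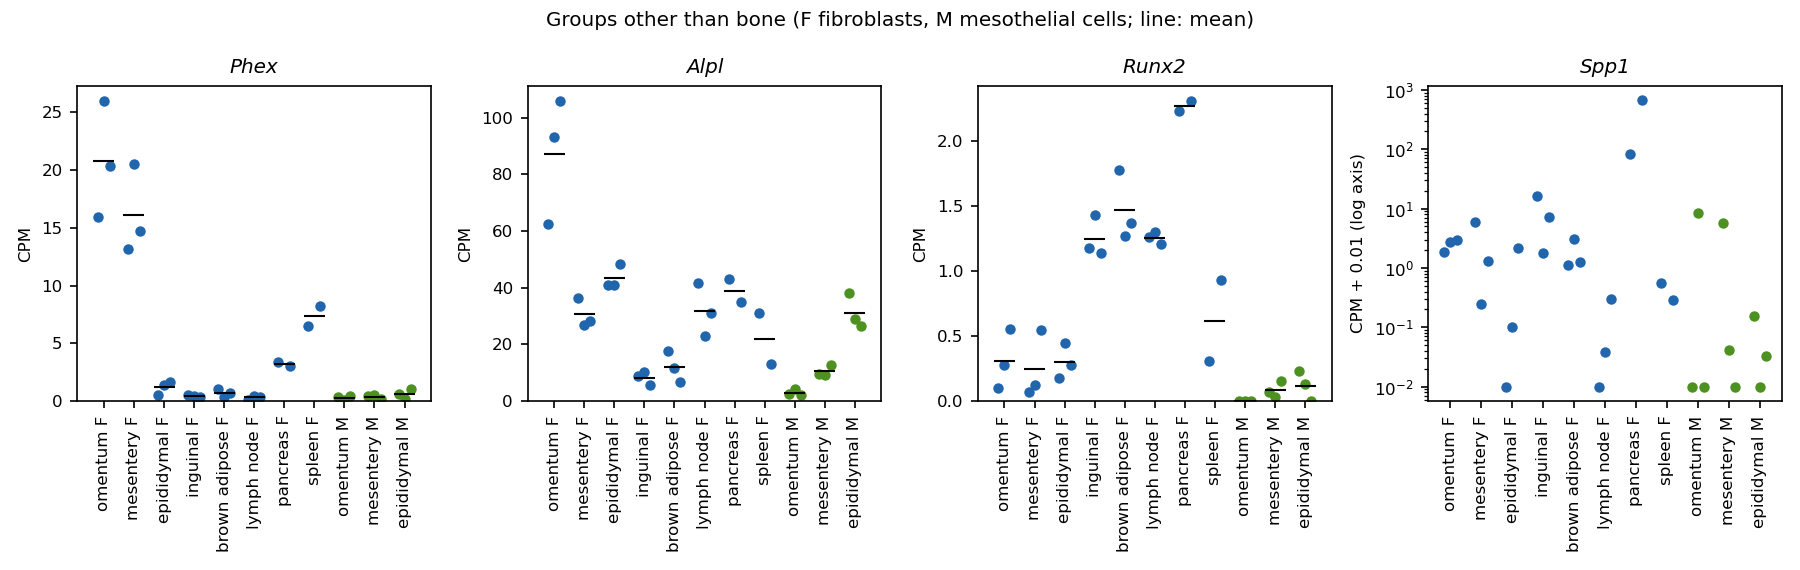
CPM of Phex, Alpl, Runx2 and Spp1 in every library outside bone, linear axes from 0 with the group mean as a line for the first 3 and a log axis (CPM plus 0.01) for Spp1; blue marks fibroblasts (F) and green mesothelial cells (M). Phex is high in omentum and mesentery fibroblasts, Alpl in omentum, Runx2 and Spp1 in pancreas.

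Visceral and subcutaneous fat fibroblasts differed in the same 3 genes. Alpl and Phex were higher in the visceral depots and Runx2 lower. Of all genes tested, 4.29% were called higher and 3.94% lower. The mean of the 3 visceral groups was 53.8 CPM of Alpl against 10.1 for the mean of inguinal and brown adipose fibroblasts (log2 fold change 2.30 ± 0.21, SE; adjusted p = 8.21e-10). For Phex the means were 12.7 and 0.561 CPM (3.74 ± 0.29; 9.6e-12), though epididymal libraries, at 0.496 to 1.64 CPM, overlapped the subcutaneous ones. For Runx2 they were 0.286 and 1.36 CPM (-2.27 ± 0.32; 1.11e-06). Every visceral library lay above every subcutaneous one for Alpl and below it for Runx2, where 1.86% of all genes lay above and 2.04% below.

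Pancreas fibroblasts stood apart for 5 genes. Spp1, Bglap, Bglap2, Ibsp and Runx2 were called higher there than in the other 7 groups without bone, where 8.67% of all genes were called higher and 2.4% lower. For 4 of them, all but Ibsp, both pancreas libraries lay above every other one (3.37% of all genes). Spp1 stood at 84.3 and 668 CPM in libraries 1 and 2, and no other fibroblast library outside bone exceeded 16 (log2 fold change 8.33 ± 0.72, SE; adjusted p = 5.64e-10). It was 6.17 without library 2 and 9.15 without library 1. Markers of other cells moved with it. From library 1 to library 2 the acinar marker sum was 40034 and 140243 CPM, the epithelial sum 14.3 and 71.2, the macrophage sum 15 and 212 and the lymphocyte sum 37.9 and 352. Their part in the Spp1 level was not tested.

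The osteocalcin and sialoprotein reads of the pancreas were few. Bglap had 39 and 46 reads, Bglap2 60 and 44, and Ibsp 25 in all. As a percentage of the bone CPM the pancreas level was 0.0081 for Bglap, 0.0080 for Bglap2, 0.0076 for Ibsp and 0.0066 for Mmp13. It was 0.034 for Bglap3, 0.027 for Dmp1, 3.1 for Runx2, 2.9 for Phex, 2.3 for Alpl and 11 for Spp1. Sp7 and Mepe had no read in the pancreas. Averaged over the pancreas libraries, Bglap, Bglap2, Ibsp and the non-member Mmp13 stood at similar small shares of their bone level. The other genes given here stood at larger shares or had no read. Bglap3 and Dmp1 averaged 0.25 and 0.275 CPM in pancreas, beside 0.285 and 0.249 over the other 7 groups without bone. At 93.1 and 3.15 CPM in bone, Sp7 and Mepe were too low for so small a share to be counted reliably. The Ibsp mean covers unlike values of 0.172 and 0.562 CPM (7 and 18 reads) in libraries 1 and 2. What gave those reads was not tested. The Ibsp call was lost with DESeq2 (log2 fold change 5.52; adjusted p = 0.354). Spp1 was called lower in lymph node fibroblasts (-5.28 ± 1.81, SE; adjusted p = 0.0285), from 9 reads, a call lost without any single lymph node library (adjusted p = 0.0824 to 0.12), without epididymal fibroblast library 3 (0.182), without spleen library 1 (0.0618) or without the pancreas libraries (0.107). Dmp1 was called higher in epididymal fibroblasts at 0.248, 0.98 and 0.495 CPM (1.68 ± 0.51; adjusted p = 0.0362; 2.23% of all genes called higher). That call was lost without epididymal fibroblast library 2 or 3, mesentery fibroblast library 1 or spleen library 1 (adjusted p = 0.629, 0.0861, 0.0511 and 0.0525) and with DESeq2 (0.176).

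Mesothelial cells had less Alpl and Phex than fibroblasts of the same depots, by an amount that depended on the depot. Of the sort genes, Pdgfra averaged at most 11.7 CPM in mesothelial cells, and the sum of 10 mesothelial markers ran from 10052 to 14772 CPM, against 116 to 937 CPM in the fibroblasts of those depots. Over the mean of the 3 depots, 4 of the 10 genes were called lower in mesothelial cells and none higher, beside 9.08% and 12.3% of all genes. Phex changed by -4.17 ± 0.26 (SE; adjusted p = 5.21e-15), Alpl by -2.30 ± 0.19 (4.77e-12) and Runx2 by -3.08 ± 0.68 (0.000389). The size for Runx2 depends on the prior count, since omental mesothelial cells held none of its reads. Runx2 was not called in mesentery (-1.42 ± 0.87, SE; adjusted p = 0.284) or the epididymal depot (-1.45 ± 0.79; 0.16). The pooled ratios of fibroblasts to mesothelial cells there were 2.72 and 2.83. Dmp1, at -2.51 ± 0.97 (0.0398), rested on few reads, and 9 of the 34 fits that each leave out a library lost its call (adjusted p up to 0.119).

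In the omentum Phex stood at 0.352, 0.0827 and 0.421 CPM in mesothelial cells against 15.9 to 26 in fibroblasts, and Alpl at 2.4, 4.33 and 2.13 CPM against 62.3 to 106. The changes were -6.18 ± 0.45 for Phex and -4.88 ± 0.36 for Alpl (SE; adjusted p = 1.88e-12 and 4.96e-12). Runx2 had no read in omental mesothelial cells and 34 in fibroblasts, at least 10.2-fold higher in fibroblasts by a floor of 3 counts over the group. These 3 genes were the ones called lower and none was called higher (8.79% and 8.1% of all genes).

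In the mesentery Phex stood at 0.428, 0.475 and 0.188 CPM in mesothelial cells against 13.2 to 20.5 in fibroblasts (-5.44 ± 0.43, SE; adjusted p = 6.28e-12), and Alpl at 9.37, 9.08 and 12.8 against 26.9 to 36.5 (-1.55 ± 0.31; 0.000238). Of all genes 7.53% were called lower there and 10.8% higher. Acinar marker sums ran from 841 to 3814 CPM in these fibroblasts and from 221 to 7467 CPM in the mesothelial cells. The 1 library a side under 1000 CPM gave -6.84 for Phex and -1.17 for Alpl, values that rest on single libraries.

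In the epididymal depot none of the 10 genes was called by edgeR (8.16% of all genes were called lower and 16.6% higher) or by DESeq2. Alpl stood at 38.2, 29 and 26.4 CPM in mesothelial cells and 41, 41 and 48.2 in fibroblasts (-0.48 ± 0.30, SE; adjusted p = 0.233). Its libraries did not overlap, as was so for 17.1% of all genes in that direction. Phex stood at 0.57, 0.158 and 1.07 against 0.496, 1.37 and 1.64 CPM (-0.90 ± 0.46; 0.14). Of the 10 genes only 1, Dmp1, had an unadjusted p under 0.05 in edgeR there (adjusted p = 0.0697). The difference between depots was itself tested, and Alpl and Phex were the 2 members that passed (10.9% of all genes did). Across the mesothelial cells of the 3 depots alone, Alpl was the 1 member called, highest in epididymal cells and lowest in omental ones (range 3.39; adjusted p = 3.8e-08), where 12.3% of all genes were called.

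**Figure D5:**
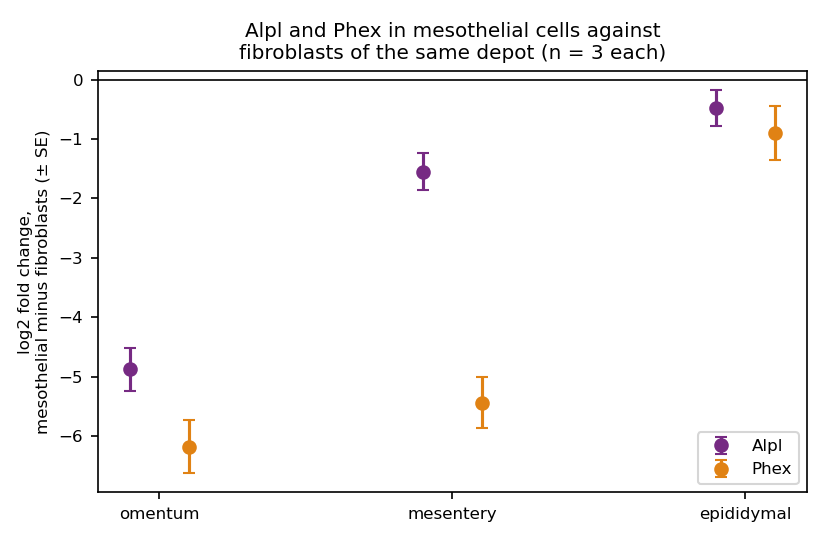
Log2 fold change of mesothelial cells against fibroblasts (vertical axis, ± SE, n = 3 libraries a side) in each depot for Alpl and Phex. Alpl runs from -4.88 in omentum to -0.48 in the epididymal depot and Phex from -6.18 to -0.90.

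The genes whose log2 CPM over all 34 libraries was most like a member's were found by Pearson's r among 17060 genes, as a description, since the libraries share groups and the bone libraries carry most of the spread. For summed Bglap and Bglap2 they were Mmp13 (r = 0.979), Shisal2b (0.973) and Ccdc194 (0.968), and for Ibsp Mmp13 (0.987), Ccdc194 (0.985) and Ambn (0.983). Spp1 was most like Mia (0.855), Ehf (0.844) and Pwwp2b (0.843). Ehf stood higher in pancreas, at 11.2 CPM, than in bone at 7.78 ± 1.91 (SD, n = 3). Alpl was most like Kalrn (0.884), Nrp2 (0.873) and S1pr1 (0.872), Phex like Sln (0.926), Psma8 (0.873) and Rnf182 (0.826), and Runx2 like Ckap4 (0.893), Xpot (0.890) and Entpd7 (0.888). The lists of Bglap and Ibsp thus shared 2 of 3 genes, and those of Spp1, Alpl, Phex and Runx2 shared none with each other.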

How the data were processed

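The authors deposited whole-number read counts per gene for each library, which the file headers define as unique alignments to a gene model. Salmon (no version) and GRCm38 are named in the processing notes of the submitters. Which step gave the counts is unresolved, and annotation release, filters and pooling are not given in the sources used here. Of 51826 identifiers 51633 matched a symbol. No pair of replicates was a copy by a chi-square test of counts.

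All 34 libraries entered a single fit in edgeR 4.0.16 (R 4.3.3; quasi-likelihood F-test, robust, TMM, filterByExpr with a minimum count of 10) with a coefficient per group, and p-values were adjusted over all 25705 genes tested. Where several groups were tested at once, the size given is the range of their log2 effects. Where a comparison has several groups on a side, their log2 effects were averaged. Marker sums use unscaled totals. Pooled ratios have exact 95% intervals, which cover counting error only, and stand in for fitted changes where groups had no reads. Likeness used log2 CPM with a prior count of 2. The code of the fit was run on simulated data with smaller changes than those of the 10 genes in bone. That run does not test the sizes given for genes without reads in whole groups. Positions come from GENCODE M21, counted from 1.

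The members and lists were chosen with earlier results of these data known. By rule, all members, Bglap3 and the 3 most alike genes were named. So were up to 4 genes of each companion list with the smallest adjusted p in bone. Twist2, Msx2, Slc20a1, Fam20c, Sost, Fgf23, Ehf, the osteoclast markers named above and the neighbours on chromosome 5 were chosen after their values were seen. Alternatives were RLE scaling, no filter, DESeq2 1.42.0, a replicate block, the osteocalcin genes summed, only the groups compared in the fit, and leaving out each library, libraries of at least 1000 CPM of acinar markers and, added after seeing the data, pancreas fibroblasts.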

Additional observations from a re-analysis of the deposited data

Results flagged for a closer look

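The difference between mesothelial cells and fibroblasts varied between the 3 fat depots for 2 of the 10 genes, by a test of that difference itself. For Alpl the log2 difference ranged over 4.40 between depots (adjusted p = 8.92e-08, edgeR's quasi-likelihood test), from -4.88 in omentum through -1.55 in mesentery to -0.48 in the epididymal depot. For Phex it ranged over 5.28 (adjusted p = 2.11e-06), from -6.18 through -5.44 to -0.90. Both calls held in each of the 34 fits that leave out a library, with DESeq2 and with the replicate block. Phex averaged 0.285 to 0.6 CPM in the mesothelial cells of the 3 depots and 1.17 to 20.8 CPM in their fibroblasts. Alpl averaged 2.95 to 31.2 CPM in mesothelial cells and 30.5 to 87.3 CPM in fibroblasts.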

How the results depend on the processing

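All 10 genes stayed higher in bone under every alternative that was run, with RLE scaling, no filter, DESeq2, the replicate block, only the groups compared, without pancreas fibroblasts and without any single library; the alternative without acinar-rich libraries could not be run for comparisons that need omentum or pancreas fibroblasts. The median correlation of deviations was -0.003 for same-numbered libraries of different groups against -0.002 for other pairs. A median over all pairs cannot show pairing confined to some groups. By mean correlation, 16 of 34 libraries were most like the libraries with their own number. The number to be met without pairing was not worked out. Pairing of the 2 cell types within a depot was not tested. With the replicate block all 10 calls in bone remained, as did the counts of members called in the other comparisons. Without pancreas fibroblasts, 4 members in place of 7 differed across the tissues outside bone; members called higher went from 0 to 2 in inguinal fibroblasts (Spp1 and Runx2) and from 0 to 1 in lymph node fibroblasts (Runx2), and members called lower from 1 to 0 in epididymal, from 2 to 1 in lymph node and from 1 to 0 in omentum fibroblasts. With DESeq2 the count higher was 0 in epididymal (1 in edgeR), 1 in lymph node (0) and 2 in spleen fibroblasts (1), that lower in epididymal fibroblasts 2 (1), and that across mesothelial depots 3 (1). Of all genes, in either direction, DESeq2 called 1122 in epididymal (999 in edgeR), 4290 in lymph node (4285) and 657 in spleen fibroblasts (920). Across mesothelial depots it called 2875 (3167). Shares of all genes are not given here for fits without the filter or with libraries left out. Without the filter the count was 2 lower in epididymal fibroblasts (1), 2 higher in inguinal (0), 1 lower in spleen (0), 2 lower in visceral fat (1), 2 lower in epididymal mesothelial cells (0) and 3 across mesothelial depots (1). Without acinar-rich libraries it was 1 lower in mesenteric mesothelial cells (2) and 2 across mesothelial depots (1), but each mesenteric group then held 1 library, assumed to vary like the other groups, so these counts say nothing about stability. Leaving out 1 library at a time, the count ran from 0 to 1 higher in brown adipose and in epididymal fibroblasts, 0 to 2 lower in epididymal fibroblasts, 0 to 1 higher in inguinal and in lymph node fibroblasts, 1 to 2 lower in lymph node, 0 to 1 lower in mesentery and in omentum fibroblasts, 0 to 2 lower in epididymal mesothelial cells 1 to 2 across mesothelial depots, 6 to 8 across the tissues outside bone, 3 to 5 lower in mesothelial cells over the mean of depots and 3 to 4 lower in omental mesothelial cells. Leaving out 1 library at a time also turned the direction of 4 values of few reads, none called in the fit of all libraries: Ibsp in inguinal fibroblasts ran from -0.94 (without inguinal library 2) to 3.99, Sp7 in spleen from -2.28 (without spleen library 2) to 3.82, Spp1 in epididymal mesothelial cells from -5.61 to 0.16, and Spp1 over the mean of depots from -4.48 (called, without omental mesothelial library 2) to 0.01, both upper values without epididymal fibroblast library 3. Unless a library's absence is the alternative itself, the cause was not tested. The median log2 fold change of all genes was within 0.1 of its main value with RLE scaling. Few reads limit Mepe, Sp7, Ibsp and Dmp1 outside bone.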
